A study of Drosophila melanogaster with 7 samples.

Results

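The genes described here drive the cell division cycle of the wing imaginal disc, the epithelial sac of the Drosophila melanogaster larva that becomes the wing and the neighbouring body wall of the adult. They are 39 of the 17208 genes of the deposited count table, taken by their symbols in it. By role they fall into 12 genes of the passage from G1 into S phase, 10 of replication licensing and 17 of mitosis. RNA was sequenced from wing discs of third-instar larvae in 4 ds38k libraries and 3 wild-type (WT) libraries. The allele ds38k is a mutation of dachsous (ds), which encodes an atypical cadherin that binds Fat, and the WT columns carry the name of the w1118 stock. The series belongs to a study of Hippo signalling and planar cell polarity downstream of Fat. Sex, hours of age, zygosity, the number of discs pooled and the tag "csvd111" in the WT column names are not explained in the sources used here. The deposited values are estimated counts per gene, so genes that overlap or resemble another gene share reads with it by estimate. Nothing says that replicates came from separate animals, so p-values speak only of how these samples vary, and that spread may be technical.

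In proliferating disc cells, cyclins bound to cyclin-dependent kinases (Cdks) drive each step of the cycle. Cyclin D with Cdk4 and Cyclin E with Cdk2 push cells into S phase, in part by freeing the transcription factor E2F from the retinoblastoma protein. Origins of replication are licensed when the origin recognition complex and Dup load the MCM helicase, which Geminin prevents once S phase has begun. Cyclins A, B and B3 with Cdk1, activated by the phosphatase String, drive mitosis, which ends when the anaphase-promoting complex destroys the cyclins. In wing discs the Hippo pathway, to which Fat and Dachsous feed in, is known for restraining growth and division.

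The total count was 25192527 to 31141974 per ds38k library and 21438604 to 31718937 per WT library. Transcripts of ds had 161 to 228 CPM (counts scaled to a common library total by TMM factors and given per 1e+06) in ds38k and 1420.04 to 1699 CPM in WT, all ds38k libraries being below all WT libraries (log2 fold change -2.95 ± 0.14, SE; edgeR adjusted p = 4.7e-06). With the correction for transcript length described below it was -1.19 ± 0.08 (edgeR adjusted p = 9.3e-05). Coordinates are given on the dm6 assembly. The 8 epithelial markers (nub, vg, ap, en, ptc, hth, ci and rn) summed to 1409 to 2078 CPM in ds38k and 3079 to 4639 CPM in WT, with 6 lower and 0 higher. All 5 fat-body markers were higher in ds38k, with a summed level of 45.2 to 2606 CPM in ds38k and 12.7 to 23.2 CPM in WT. Of 5 tested salivary gland markers 2 were higher, with a summed level of 0.321 to 1123 CPM in ds38k and 0.112 to 12.0 CPM in WT. The myoblast list had 2 of 6 higher and 2 lower (183 to 259 CPM in ds38k, 342 to 424 CPM in WT), the tracheal list 0 higher and 3 lower of 6 (2059 to 2316 CPM in ds38k, 3249 to 3734 CPM in WT) and the hemocyte list 0 higher and 3 lower of 6 (76.3 to 97.9 CPM in ds38k, 221 to 277 CPM in WT). These sums are per library total, without TMM factors. With the length correction the calls were 1 higher and 4 lower epithelial, 5 higher fat-body, 2 higher salivary gland, 2 higher and 0 lower myoblast, 1 higher and 2 lower tracheal, and 0 hemocyte markers. No marker had a count of 0 in all 7 libraries. The part of these other cell types in the results below was not tested. In such bulk samples, fewer cells of a type and less RNA per cell cannot be told apart. Replicate 4 of ds38k stood apart from the other ds38k libraries. It had the highest level of the 4 ds38k libraries for 34 of the 39 genes and the lowest fat-body sum, while replicate 2 had the highest. The TMM factor of replicate 4 was 0.8794, against 0.9456 to 0.9638 in the other ds38k libraries. A lower factor raises every scaled level of a library, and its part in the count of 34 was not tested. How often replicate 4 was the highest among all tested genes was not counted, so the 34 is no result about this set.

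All 39 genes had enough counts to be tested, with group means from 22.1 to 875 CPM. In ds38k discs 10 of them were higher and 18 lower, and 11 did not pass the test (quasi-likelihood test of edgeR, p adjusted by Benjamini-Hochberg over all 9294 tested genes, threshold 0.05). Over all tested genes 65.0% were called, 34.2% as higher and 30.8% as lower. Among the 39 the shares were 71.8%, 25.6% and 46.2%. The counts by role given below are to be read against the shares over all tested genes, and against those by transcript length given next. The median log2 fold change was -0.32 for the 39 genes and 0.07 for all tested genes. Without ds38k replicate 4 the counts were 10 higher and 23 lower, without ds38k replicate 2 they were 10 and 15, and without WT replicate 2 they were 10 and 12. Lower calls among all genes numbered 3190, 2541 and 2492 in these fits, against 2859 with all libraries. Upper-quartile scaling of the libraries, which moves the median of all genes to 0.33, gave 11 higher and 12 lower: Dp, Mcm2, stg, CycB, Incenp and fzr were no longer called, and polo was called higher. The groups did not overlap for 28 of the 39 genes, a share of 71.8%, where it was 66.4% over all tested genes.

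Transcript length separated the directions without exception. The 10 genes that rose had median annotated transcripts of 1000 to 1744 bases, and the 17 of known length that fell had 2448 to 4626 bases. Orc1, which also fell, was analysed here without a length. Fold changes ran with length across the whole transcriptome of these libraries. Of 4471 tested protein-coding genes under 2000 bases 56.9% were higher and 8.43% lower, and of 4127 genes of 2000 bases or more 12.8% were higher and 54.5% lower. The cell cycle set was longer than most, with a median of 2546 bases against 1930.5 bases for the tested protein-coding genes. A share of lower genes above that of all genes is therefore no result about the set. Fold change and length had a Spearman's rho of -0.83 over 38 genes of the cell cycle set and -0.60 over 8598 protein-coding genes, all measured in the same 7 libraries. Each gene is therefore given also with a correction that subtracts, in each library, a fitted trend of log2 CPM with transcript length. Some relation with length remained after it, with a Spearman's rho of -0.38 over the 38 genes and -0.14 over the 8598 genes. Median corrected values of protein-coding genes ran from 0.34 in the shortest of 10 length classes to -0.18 in the longest. The correction removes any real change that runs with length as well. With it, 11 of 38 genes were higher and 6 lower, where 46.7% of all 9224 genes with a length were called, 27.6% as higher and 19.1% as lower. The corrected groups did not overlap for 18 of the 38 genes, against 52.8% of all genes.

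**Figure D1:**
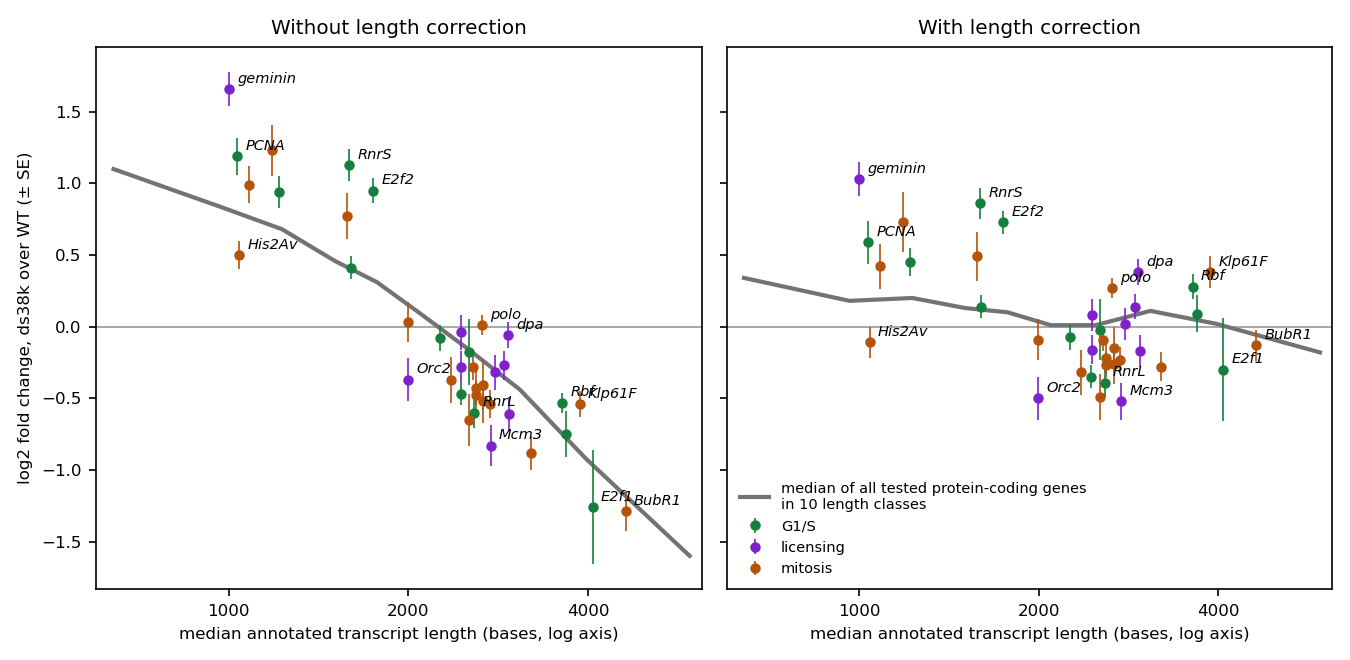
Log2 fold change of ds38k over WT (± SE) against the median annotated transcript length in bases (log axis), without (left) and with (right) the length correction. Points are 38 cell cycle genes coloured by role, and the grey line joins the medians of all tested protein-coding genes in 10 length classes. On the left the genes under 2000 bases lie mostly above 0 and the longer ones at or below it; on the right geminin at 1.03 and RnrS at 0.86 are the highest.

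Genes called in 1 direction by both fits were 7 higher genes (Cdk2, E2f2, PCNA, RnrS, aurA, aurB and geminin) and 5 lower genes (CycB, Dp, Mcm3, RnrL and ncd). Cdk1, Cdk4 and His2Av were no longer called higher, and 10 genes were no longer called lower. Rbf and Klp61F turned from lower to higher, dpa and polo were called higher only with the correction, and Orc2 was called lower only with it. Leaving out each library in turn gave the same call with the correction, in all 7 fits, for 4 higher genes (E2f2, RnrS, geminin and dpa) and 1 lower gene (Dp). Without the correction, 10 higher and 12 lower calls stood in all 7 fits. How many of all tested genes were called in both fits, or held in all 7 fits, was not counted. These numbers are therefore no result about the cell cycle set. The corrected counts leaned on single libraries. The higher calls numbered 9, 10, 12 and 11 without ds38k replicates 1 to 4, and 6, 7 and 4 without WT replicates 1 to 3. The lower calls numbered 2, 3, 2 and 11 without ds38k replicates 1 to 4, and 5, 1 and 3 without WT replicates 1 to 3. Among all genes, corrected higher calls moved from 2549 to 2321, 2212, 2419 and 2741 without ds38k replicates 1 to 4. They numbered 2255, 1729 and 1821 without WT replicates 1 to 3. Corrected lower calls moved from 1760 to 1363, 1357, 1411 and 2317 without the ds38k replicates, and to 1552, 1267 and 1450 without the WT replicates. Such movement was thus not particular to the cell cycle set.

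**Figure D2:**
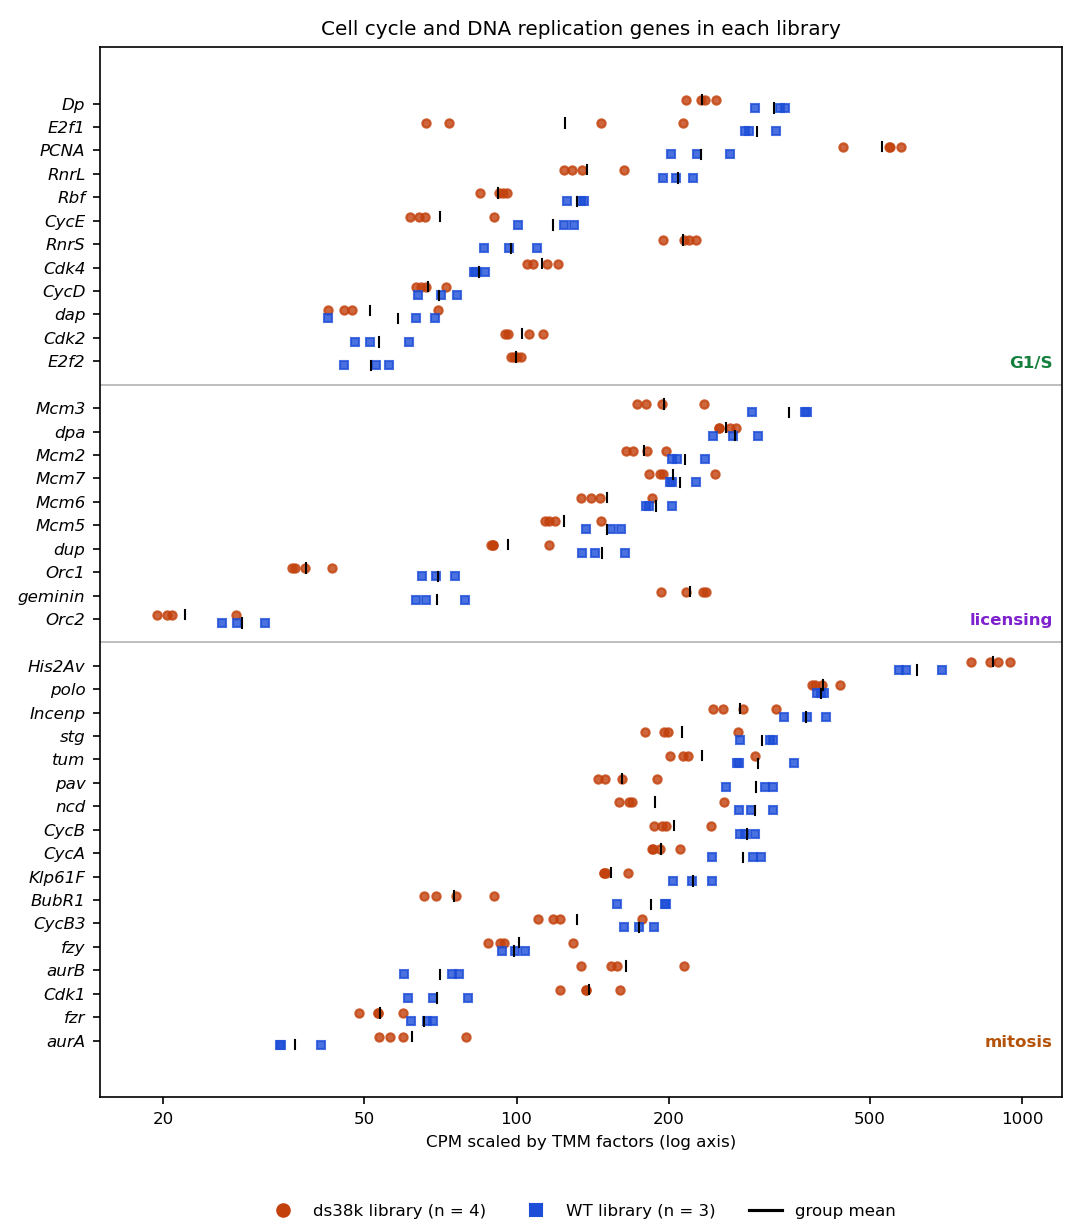
CPM scaled by TMM factors (log axis) of each gene in each library, with ds38k libraries as circles above WT libraries as squares, and black bars at the group means. Genes are ordered by their WT mean within each role. For geminin, PCNA, RnrS and E2f2 every ds38k circle lies to the right of every WT square, and for BubR1, Orc1 and Mcm3 every circle lies to the left.

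Of the 12 genes of G1 and the G1/S transition 5 were higher (Cdk2, Cdk4, E2f2, PCNA and RnrS) and 5 lower (CycE, Dp, E2f1, Rbf and RnrL); with the correction 5 were higher and 2 lower. Cdk2, the kinase partner of Cyclin E (3R:20735623-20738414), had 106, 113, 95.1 and 96.3 CPM in ds38k replicates 1 to 4 and 47.9, 61.3 and 51.3 CPM in WT replicates 1 to 3. All ds38k libraries lay above all WT libraries, and the log2 fold change was 0.94 ± 0.11 (SE; edgeR adjusted p = 3.0e-04), or 0.45 ± 0.10 with the correction (0.0099; 0.052 without WT replicate 3). CycE, whose product triggers S phase entry and is limiting for it in disc cells, had 61.6, 64.2, 66.0 and 90.3 CPM in ds38k against 100.5, 124 and 129.9 CPM in WT. Its groups did not overlap either, and it fell by 0.75 ± 0.16 on the log2 scale (edgeR adjusted p = 0.0047). With the correction its value was 0.09 ± 0.13 (0.61).

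Cdk4, the kinase partner of Cyclin D, averaged 112 ± 7.25 CPM in ds38k and 84.1 ± 2.31 CPM in WT (SD, n = 4 and 3). It rose by 0.41 ± 0.08 on the log2 scale, with 0.14 ± 0.08 after correction (edgeR adjusted p = 0.20). CycD itself, which drives growth as well as G1 progression, was at 63.4 to 72.6 CPM in ds38k and 63.9 to 76.2 CPM in WT, ranges that overlapped, with values of -0.08 ± 0.09 and -0.07 ± 0.09 (edgeR adjusted p = 0.48 and 0.51). The gene dacapo (dap), which encodes the inhibitor of Cyclin E-Cdk2, also overlapped, with 42.4 to 69.9 CPM in ds38k and 42.4 to 69.0 CPM in WT (edgeR adjusted p = 0.50 and, with the correction, 0.96).

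The E2F genes differed from each other. E2f2 encodes the repressor E2F of the fly (2L:21154293-21156749). It had 99.0, 100.1, 102 and 97.3 CPM in ds38k and 52.7, 56.0 and 45.6 CPM in WT, so it rose by 0.95 ± 0.09 on the log2 scale (SE, with an adjusted p from edgeR of 8.1e-05). The ds38k libraries lay close together, all above WT, and the corrected value was 0.73 ± 0.08 (5.4e-04). E2f1 encodes the activating E2F (3R:21620304-21660871) and was the most scattered of the 39 genes in ds38k, with 147, 66.1, 73.4 and 213 CPM against 289, 283 and 326 CPM in WT. All ds38k libraries were below WT, yet replicates 1 and 4 lay well above replicates 2 and 3. Its coefficient of variation was 55.4% in ds38k and 7.86% in WT. E2f1 fell by 1.26 ± 0.40 on the log2 scale (edgeR adjusted p = 0.026), and the call was lost in 4 of the 7 fits that left out a library (adjusted p = 0.052 without ds38k replicate 3, and 0.059, 0.059 and 0.076 without WT replicates 1 to 3). With the correction it was at -0.30 ± 0.36 (0.53).

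Dp encodes the partner that E2F proteins need to bind DNA. It had 216, 232, 236 and 248 CPM in ds38k and 297, 332 and 340.4 CPM in WT, with no overlap. Its fall of 0.47 ± 0.08 on the log2 scale (edgeR adjusted p = 0.0019) was 0.35 ± 0.08 with the correction (0.0094), and this call held in all 7 fits that left out a library. With upper-quartile scaling Dp was at -0.21 and not called (edgeR adjusted p = 0.054). Rbf encodes the retinoblastoma protein that holds E2F in check. It had 84.7 to 95.9 CPM in ds38k and 126 to 136 CPM in WT, fell by 0.53 ± 0.07 without the correction (edgeR adjusted p = 6.1e-04) and was at 0.28 ± 0.09 with it (0.037). Its transcript is among the longer ones of the set at 3619 bases, and its direction thus turned with the correction, a call that stood in 2 of the 7 fits without a library.

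Known targets of E2F in S phase also split. PCNA encodes the sliding clamp of the replication fork (2R:20261754-20262883). It had 548, 546, 443 and 577 CPM in ds38k and 228, 265 and 202 CPM in WT. Every ds38k library held well above the highest WT value, a rise of 2.28-fold (log2 1.19 ± 0.13, SE; edgeR adjusted p = 1.9e-04), with a log2 value of 0.59 ± 0.15 after correction (0.018). That corrected call was lost without WT replicate 1 or 3 (adjusted p = 0.064 and 0.098). RnrS and RnrL encode the small and large subunits of ribonucleotide reductase, which makes deoxynucleotides. RnrS (2R:11983145-11985393) had 214, 219, 195 and 227 CPM in ds38k and 86.1, 109.6 and 96.5 CPM in WT. It rose 2.19-fold, or 1.81-fold with the correction (edgeR adjusted p = 7.9e-05 and 9.7e-04). RnrL (2L:10325026-10327943) had 124, 135, 129 and 163 CPM in ds38k and 195, 223 and 207 CPM in WT. It moved the opposite way, falling by 0.60 ± 0.11 on the log2 scale, and by 0.39 ± 0.10 with the correction (edgeR adjusted p = 0.0024 and 0.016). The corrected call of RnrL was lost without ds38k replicate 1, ds38k replicate 3 or WT replicate 2 (adjusted p = 0.054, 0.054 and 0.058).

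Of the 10 licensing genes 1 was higher, geminin, and 4 were lower, Orc1, dup, Mcm2 and Mcm3. Geminin, whose product binds Dup and blocks relicensing, had the largest fold change of the 39 genes in either direction. The gene lies at 2R:6655463-6656594 on the minus strand, with a median transcript of 1000 bases. It had 237, 234, 193 and 216 CPM in ds38k and 66.1, 79.2 and 63.3 CPM in WT. The lowest ds38k library was thus far above the highest WT library. The rise was 3.16-fold (log2 1.66 ± 0.12, SE; edgeR adjusted p = 2.4e-05) and 2.04-fold with the correction (1.03 ± 0.12; 7.1e-04). Both calls held in all 7 fits that left out a library. The dup gene encodes the Cdt1 homologue that loads the helicase and is the target of Geminin. It had 89.1, 89.8, 89.9 and 116 CPM in ds38k and 135, 164 and 143 CPM in WT. It fell by 0.61 ± 0.12 (edgeR adjusted p = 0.0035), a value of -0.17 ± 0.11 with the correction (0.23).

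Orc1 encodes the largest subunit of the origin recognition complex, whose level is known to oscillate with E2F activity in the fly. It had 38.1, 36.4, 35.9 and 43.2 CPM in ds38k and 69.4, 75.7 and 65.1 CPM in WT, and fell 1.82-fold (log2 -0.87 ± 0.10, SE; edgeR adjusted p = 1.9e-04). It has no corrected value here. Orc2, another subunit of the complex, had 19.4 to 27.8 CPM in ds38k and 26.1 to 31.8 CPM in WT. These ranges overlapped through ds38k replicate 4, and its values were -0.37 ± 0.15 without and -0.50 ± 0.15 with the correction (edgeR adjusted p = 0.064 and 0.029). The corrected call was lost in 5 of the 7 fits that left out a library.

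The 6 subunits of the MCM helicase form a ring in equal numbers, and their transcripts are of like length, from 2451 to 2937 bases. Their log2 fold changes ran from -0.83 to -0.04, with a median of -0.28, and from -0.52 to 0.38 with the correction. Mcm3 (X:5323855-5326738) was at the low end with 194, 173, 180.03 and 235 CPM in ds38k and 372, 376 and 292 CPM in WT. It fell 1.77-fold, or 1.43-fold with the correction (edgeR adjusted p = 0.0015 and 0.015). The corrected call was lost without WT replicate 1 or 2 (adjusted p = 0.055 and 0.058). The dpa gene, which encodes the MCM4 subunit of the ring, had 265, 252, 252 and 272 CPM in ds38k and 268, 300.3 and 245 CPM in WT. Its uncorrected groups overlapped, with a log2 value of -0.06 ± 0.09 (edgeR adjusted p = 0.57), and with the correction it was called higher at 0.38 ± 0.09 (0.015). Mcm2 fell by 0.27 ± 0.10 (edgeR adjusted p = 0.036), a call that stood in 2 of the 7 fits that left out a library, and was at 0.14 ± 0.09 with the correction. Mcm5, Mcm6 and Mcm7 had overlapping groups and values of -0.28 ± 0.11, -0.32 ± 0.12 and -0.04 ± 0.12 (edgeR adjusted p = 0.061, 0.053 and 0.77). Without ds38k replicate 4 those of Mcm5 and Mcm6 were -0.37 and -0.43 and passed the test (edgeR adjusted p = 0.0068 and 0.0027).

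**Figure D3:**
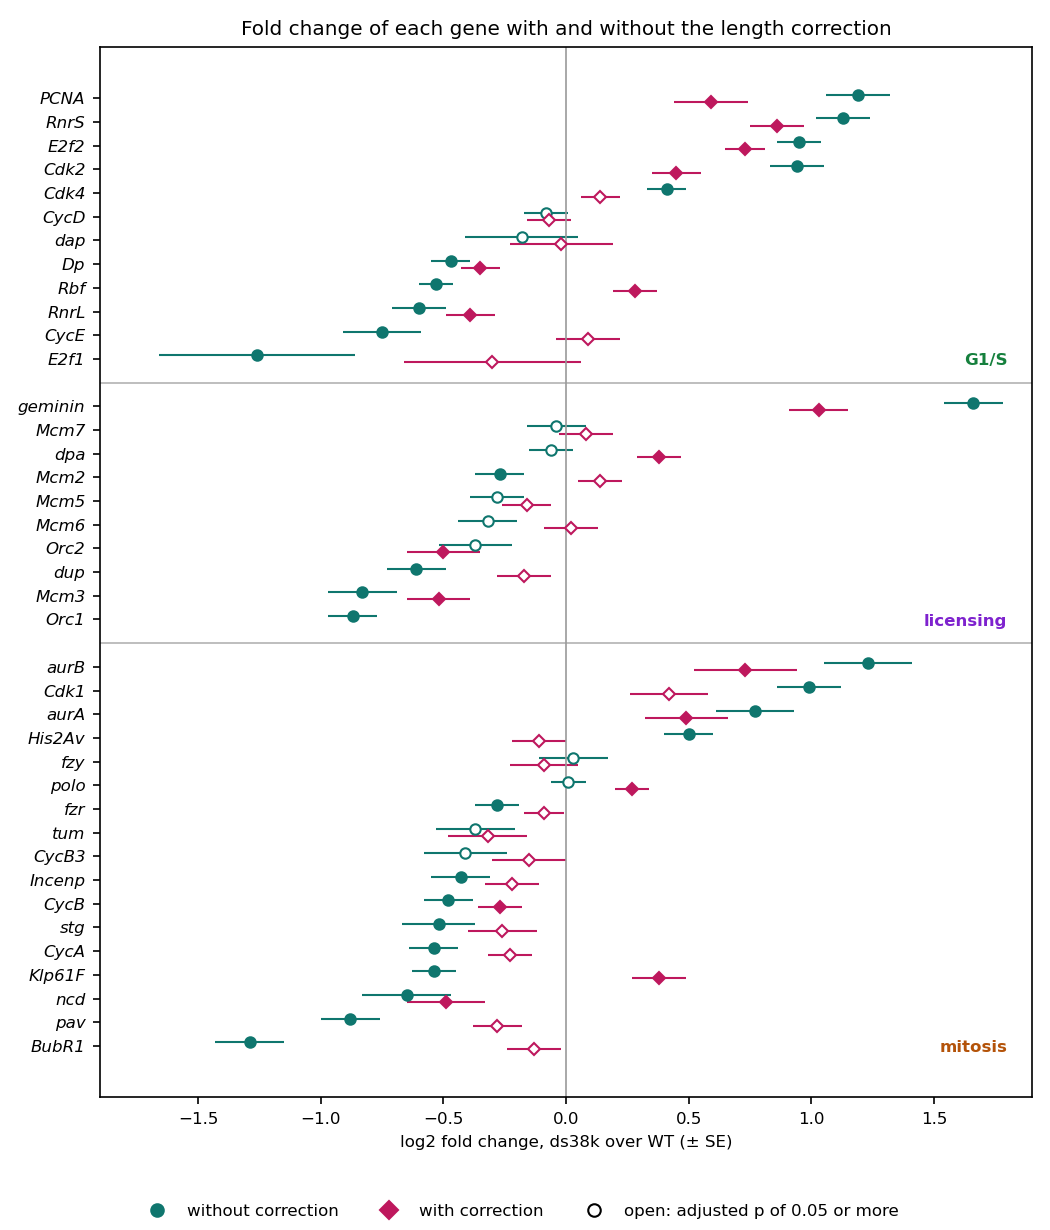
Log2 fold change of ds38k over WT (± SE) for each of the 39 genes, grouped by role, without (circles) and with (diamonds) the length correction. Filled symbols passed an adjusted p of 0.05 and open symbols did not; Orc1 has no corrected value. The circles run from BubR1 at -1.29 to geminin at 1.66, and the diamonds from Mcm3 at -0.52 to geminin at 1.03.

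Of the 17 mitotic genes 4 were higher (aurA, aurB, Cdk1 and His2Av) and 9 lower (BubR1, CycA, CycB, fzr, Incenp, Klp61F, ncd, pav and stg). The kinase genes Cdk1, aurA and aurB were thus higher, while the kinase gene polo was not called and BubR1 was lower. Cdk1, the mitotic kinase (2L:10384739-10386262), had 122, 137, 137 and 160.05 CPM in ds38k and 61.0, 80.0 and 68.2 CPM in WT. It rose by 0.99 ± 0.13 on the log2 scale (edgeR adjusted p = 4.3e-04), and was at 0.42 ± 0.16 with the correction (0.064). That corrected value passed without ds38k replicate 1, 2 or 3 (edgeR adjusted p = 0.026, 0.048 and 0.047). Of its cyclin genes CycA and CycB passed the test without correction and CycB3 did not. CycA fell by 0.54 ± 0.10 and CycB by 0.48 ± 0.10 (edgeR adjusted p = 0.0024 and 0.0051), with 185 to 211 and 187 to 242 CPM in ds38k against 244 to 305 and 277 to 297 CPM in WT. With the correction CycA was at -0.23 ± 0.09 (0.067) and CycB at -0.27 ± 0.09 (0.045). That CycB call was lost in 6 of the 7 fits without a library. CycB3 had overlapping groups, at 110.3 to 177 CPM in ds38k and 163 to 187 CPM in WT (log2 -0.41 ± 0.17, edgeR adjusted p = 0.065). Without ds38k replicate 4 it was at -0.59 (edgeR adjusted p = 7.4e-04).

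String (stg), the Cdc25 phosphatase whose transcription times mitosis in the fly, had 196, 199, 179.9 and 274 CPM in ds38k and 277, 322 and 317 CPM in WT. Replicate 4 of ds38k came close to the lowest WT library and the other ds38k libraries lay well below it. The fall of 0.52 ± 0.15 (edgeR adjusted p = 0.018) was -0.26 ± 0.14 with the correction (0.16), and was no longer called without ds38k replicate 2, WT replicate 2 or WT replicate 3 (0.053, 0.063 and 0.057). Polo, a kinase of centrosomes and cytokinesis, overlapped at 384 to 436 CPM in ds38k and 393 to 406 CPM in WT, with a log2 value of 0.01 ± 0.07 (edgeR adjusted p = 0.89). With the correction polo was called higher at 0.27 ± 0.07 (0.015), but not without WT replicate 2 or 3 (0.053 and 0.05).

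The Aurora kinase genes rose. AurB, the kinase of the chromosomal passenger complex that corrects chromosome attachment, had 158, 154, 134 and 214 CPM in ds38k and 74.6, 77.0 and 59.8 CPM in WT. The rise was 2.34-fold, or 1.66-fold with the correction (edgeR adjusted p = 7.4e-04 and 0.024), and the corrected call was lost without any single WT library (0.062, 0.075 and 0.11). AurA, the kinase of spindle poles, averaged 62.2 ± 11.9 CPM in ds38k and 36.4 ± 3.96 CPM in WT (SD, n = 4 and 3) with no overlap, a rise of 1.71-fold, or 1.41-fold with the correction (edgeR adjusted p = 0.0041 and 0.045). Its corrected call was lost without any single WT library and without ds38k replicate 1. Incenp, the scaffold that binds Aurora B, had 245 to 326 CPM in ds38k and 338 to 409 CPM in WT. It fell by 0.43 ± 0.12 on the log2 scale (edgeR adjusted p = 0.015), with -0.22 ± 0.11 after correction (0.15). Without WT replicate 2 the uncorrected call was lost (0.058).

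Checkpoint and exit genes differed in size. BubR1, which holds back anaphase until chromosomes are attached, had 69.2, 65.7, 76.0 and 90.2 CPM in ds38k and 158, 197 and 198 CPM in WT, the largest fall of the 39 genes at 2.45-fold (log2 -1.29 ± 0.14, SE; edgeR adjusted p = 1.5e-04). It also has the longest transcript of the set, 4626 bases, and its corrected value was -0.13 ± 0.11 (0.32). Activators of the anaphase-promoting complex were closer to WT. Fizzy (fzy, Cdc20) overlapped at 87.9 to 129.6 CPM in ds38k and 93.7 to 104 CPM in WT (log2 0.03 ± 0.14, edgeR adjusted p = 0.85), while fizzy-related (fzr, Cdh1), which keeps cyclins low in G1, fell by 0.28 ± 0.09 (0.026). The fzr call stood in 2 of the 7 fits without a library and its corrected value was -0.09 ± 0.08 (0.39).

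Motor and cytokinesis genes were mostly lower without correction. Klp61F encodes the kinesin that pushes spindle poles apart. It had 149 to 166 CPM in ds38k and 204 to 244 CPM in WT, fell by 0.54 ± 0.09 (edgeR adjusted p = 0.0012), and turned to 0.38 ± 0.11 with the correction (0.026), a call that stood in 3 of the 7 fits without a library. The minus-end motor gene ncd had 169, 167, 159.7 and 257 CPM in ds38k and 291, 322 and 275 CPM in WT. It fell by 0.65 ± 0.18, or by 0.49 ± 0.16 with the correction (edgeR adjusted p = 0.014 and 0.044), and the corrected call was lost in 6 of the 7 fits without a library. The uncorrected call was lost without WT replicate 2 (0.053). Pavarotti (pav) and Tumbleweed (tum) form the centralspindlin complex of the dividing cell's midzone. Pav fell by 0.88 ± 0.12 (edgeR adjusted p = 5.7e-04; -0.28 ± 0.10 and 0.053 with the correction), and tum had overlapping groups and a value of -0.37 ± 0.16 (0.079; 0.0064 without ds38k replicate 4). His2Av, the histone H2A variant of fly chromatin, is grouped here for its use as a chromosome marker. It had 794 to 945 CPM in ds38k and 571 to 695 CPM in WT and rose by 0.50 ± 0.10 (edgeR adjusted p = 0.0039), with a corrected value of -0.11 ± 0.11 (0.45).

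Genes of closer length were also set side by side without correction, although length still differed within each window. The length correction moved log2 values by 0.0 (CycD) to 0.44 (dup and dpa) among genes of 2256 to 2951 bases. It moved them by 0.60 (pav) to 1.16 (BubR1) among genes of 3207 to 4626 bases. The 6 genes with transcripts of 1000 to 1215 bases all rose, from His2Av at 0.50 through Cdk2, Cdk1, PCNA and aurB to geminin at 1.66. Of the 6 genes from 1577 to 1996 bases 4 rose, and the values ran from Orc2 at -0.37 to RnrS at 1.13. The 20 genes from 2256 to 2951 bases ran from Mcm3 at -0.83 to polo at 0.01, with 11 lower and 0 higher. The 6 genes from 3207 to 4626 bases all fell, from Rbf at -0.53 to BubR1 at -1.29. These windows were chosen after the values were seen and carry no test. All tested protein-coding genes ran the same way. Their median was 0.84 and 0.68 in the length classes centred on 963 and 1228 bases, and 0.31 at 1772 bases. It was -0.14 at 2488 bases, and -0.44 and -0.92 at 3076 and 3964 bases. That all genes of a window rose or fell is therefore no result about the cell cycle set.

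Ratios of partner genes within a library do not depend on how libraries are scaled, although they still depend on length where the partners' lengths differ. How often pairs of other genes with like lengths differ was not tested, so the number of pairs that differ is no result about partners; 66.4% of all single genes did not overlap between the groups. Of 8 partner pairs, 7 differed between ds38k and WT at an exact two-sided permutation p of 0.0286, the smallest that 35 splits of 7 libraries allow, and 0.0327 after Benjamini-Hochberg adjustment over the 8. The log2 ratio of geminin to dup was 1.41, 1.38, 1.10 and 0.90 in ds38k and -1.03, -1.05 and -1.17 in WT. The ratio was thus above 0 in all 4 ds38k libraries and below 0 in all 3 WT libraries, on counts that are not per length. The difference was 2.28, or 1.19 with the correction (exact permutation p = 0.0286, adjusted 0.0457). The ratio of RnrL to RnrS averaged -0.64 ± 0.13 in ds38k and 1.10 ± 0.08 in WT (SD, n = 4 and 3), a difference of -1.74, or -1.26 corrected. The groups did not overlap. The ratio of aurB to Incenp averaged -0.76 ± 0.12 in ds38k and -2.41 ± 0.08 in WT, a difference of 1.65, or 0.92 corrected. The ratio of CycB to Cdk1 averaged 0.56 ± 0.06 in ds38k and 2.04 ± 0.16 in WT, a difference of -1.48, or -0.68 corrected. For CycD over Cdk4 the means were -0.75 ± 0.07 in ds38k and -0.26 ± 0.13 in WT, and the difference of -0.49 was -0.21 corrected. These 5 pairs kept an adjusted exact permutation p of 0.0457 with the correction. CycE over Cdk2 averaged -0.56 ± 0.33 in ds38k and 1.14 ± 0.17 in WT, and its difference of -1.70 was -0.37 with the correction (adjusted exact permutation p = 0.0762). Pav over tum differed by -0.50 without and by 0.04 with the correction (0.849), and fzr over fzy by -0.30 and 0.01 (adjusted exact permutation p = 0.0571 and 0.971).

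**Figure D4:**
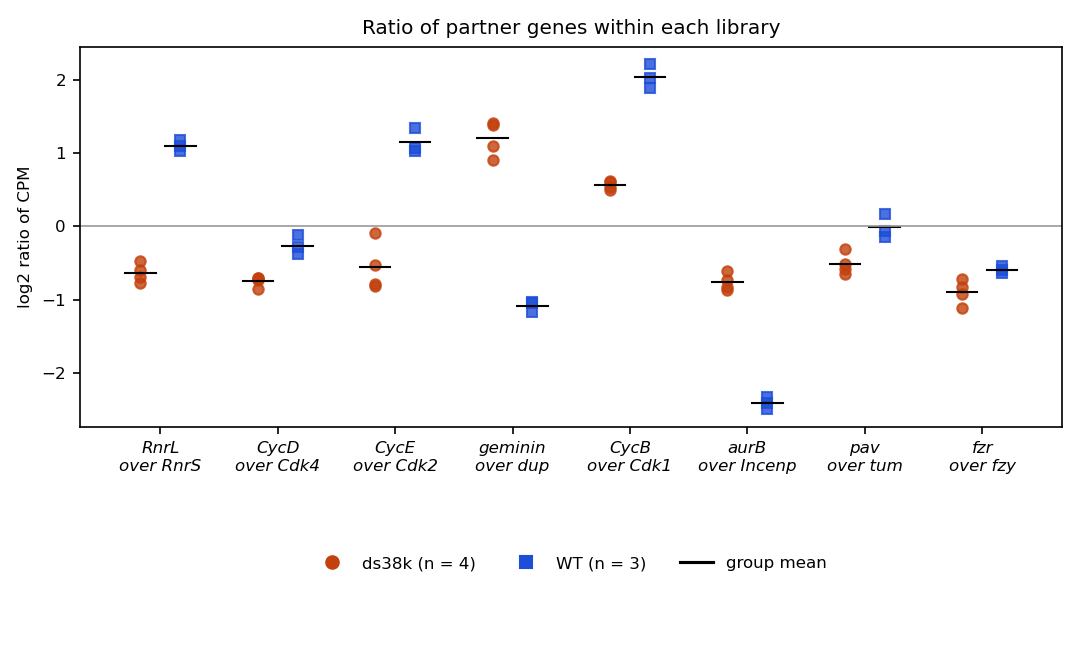
Log2 ratio of CPM between partner genes in each library, ds38k as circles left of WT as squares, with black bars at the group means. The ratio of geminin to dup is above 0 in all 4 ds38k libraries and below 0 in all 3 WT libraries, and that of RnrL to RnrS is the other way round.

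Levels between genes were compared per 1000 bases of median transcript, on a scale of CPM per kilobase for the 38 genes with a length. His2Av stood first and PCNA after it in both genotypes, at 841 ± 60.4 and 511 ± 56.6 in ds38k and 595 ± 64.2 and 224 ± 30.6 in WT (SD, n = 4 and 3). Behind them geminin ranked 3 in ds38k at 219.8 ± 20.3, against rank 18 in WT at 69.5 ± 8.51. AurB ranked 5 in ds38k and 24 in WT, and RnrS 6 and 23. Incenp ranked 8 in ds38k and 4 in WT, and Mcm3 17 and 7. Neighbours in these orders often lay within their spread, as for polo at 152 ± 8.72 and aurB at 139 ± 29.0 in ds38k, or Incenp at 144 ± 13.7 and Dp at 132 ± 9.55 in WT. Orc2 was at the bottom in both, at 11.1 ± 1.94 in ds38k and 14.3 ± 1.48 in WT. Fold changes ran with length, and which genotype's order of short and long genes this affects was not tested.

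Summed over each role, the 12 G1/S genes had 1645 to 2071 CPM in ds38k and 1619 to 1812 CPM in WT, the 10 licensing genes 1369 to 1686 CPM in ds38k and 1557 to 1854 CPM in WT, and the 17 mitotic genes 3352 to 4157 CPM in ds38k and 3843 to 4404 CPM in WT. All 3 ranges overlapped between genotypes. Of the 6 members on chromosome arm 2L, the arm of ds, the nearest to ds is RnrL at 9.61 Mb.

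Other genes of the same machinery, listed from textbook knowledge, gave a wider view. These lists were written with earlier results of these data known. Their lengths differed from that of all tested protein-coding genes, whose median was 1930.5 bases. The median was 2589 bases for the further G1/S genes, 1753 for replication, 2684 for mitosis and 2706 for checkpoint and repair. Shares over all genes are thus not matched for length. Of 26 further G1/S regulators 6 were higher and 7 lower, with a median log2 fold change of -0.13. With the correction 7 were higher and 2 lower, and with upper-quartile scaling 11 and 5. Over all tested genes 34.2% were higher and 30.8% lower, or 27.6% and 19.1% with the correction. Upper-quartile scaling called 3990 of all 9294 genes higher and 2259 lower. Roc1a, a subunit of SCF ubiquitin ligases, rose by 1.34 ± 0.09, or 0.80 ± 0.07 with the correction (edgeR adjusted p = 2.3e-05 and 3.1e-04). Myt1, a kinase that inhibits Cdk1, rose by 0.81 ± 0.10, or 0.67 ± 0.10. Mip40, a subunit of the Myb-MuvB complex, rose by 0.74 ± 0.09, with 0.17 ± 0.11 after correction. The ago gene, which encodes the F-box protein that targets Cyclin E for destruction, fell by 1.17 ± 0.08, and l(3)mbt and pic fell by 1.26 ± 0.08 and 0.65 ± 0.08. With the correction ago, l(3)mbt and pic were at 0.14 ± 0.09, 0.08 ± 0.09 and 0.27 ± 0.10 and not called (edgeR adjusted p = 0.21, 0.50 and 0.052).

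Of 41 further replication genes 15 were higher and 10 lower, with a median of 0.03, where all genes had 34.2% higher and 30.8% lower. With the correction 8 of 39 were higher and 5 lower, where all genes had 27.6% higher and 19.1% lower. Short subunits of the replication machinery were among the higher genes. RfC38, of the clamp loader for PCNA, rose by 0.96 ± 0.12, or 0.62 ± 0.11 with the correction (edgeR adjusted p = 3.7e-04 and 0.0040). Psf2, of the GINS complex of the helicase, rose by 1.31 ± 0.18, or 0.58 ± 0.17, and RfC4 by 0.76 ± 0.09, with 0.21 ± 0.09 after correction (0.078). The catalytic polymerase genes DNApol-epsilon255 and DNApol-alpha180 fell by 1.85 ± 0.09 and 1.39 ± 0.09. Their corrected values were -0.31 ± 0.10 and -0.23 ± 0.09 (edgeR adjusted p = 0.039 and 0.062). The chif gene, whose product activates the replication kinase Cdc7, fell by 1.61 ± 0.10 and was at -0.08 ± 0.09 with the correction (0.50).

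Of 90 tested further mitotic genes 54 were lower and 17 higher, with a median of -0.54, where all genes had 30.8% lower and 34.2% higher. With the correction 25 were lower and 7 higher (median -0.13), where all genes had 19.1% lower and 27.6% higher. Calls made as lower in both fits covered 24 of the 90, and the share of all genes so called was not counted. The kinetochore gene rod had 50.7 ± 4.54 CPM in ds38k and 320.01 ± 28.0 CPM in WT (SD, n = 4 and 3), and fell by 2.66 ± 0.10 on the log2 scale, or by 1.16 ± 0.09 with the correction (edgeR adjusted p = 1.8e-04). The microtubule polymerase gene msps fell by 2.39 ± 0.10, or by 0.79 ± 0.08 with the correction. The gene chb, which encodes a CLASP protein of microtubule ends, fell by 1.49 ± 0.07, with -0.15 ± 0.08 after correction (0.14). Those that rose included wac, of the augmin complex (1.41 ± 0.12, corrected 0.64 ± 0.15), Det, the Survivin homologue of the passenger complex (1.12 ± 0.14, corrected 0.37 ± 0.17, edgeR adjusted p = 0.11), and san, an acetyltransferase gene of sister chromatid cohesion (0.97 ± 0.10, corrected 0.23 ± 0.07).

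Of 22 genes of the DNA damage checkpoint and repair 13 were lower and 2 higher, and 7 were lower and 2 higher with the correction. All tested genes had 30.8% lower and 34.2% higher, or 19.1% and 27.6% with the correction. The checkpoint kinase genes tefu (ATM) and mei-41 (ATR) fell by 2.77 ± 0.14 and 2.62 ± 0.12. Both remained lower with the correction, at -1.10 ± 0.09 and -0.99 ± 0.13 (edgeR adjusted p = 2.2e-04 and 0.0012). The gene rad50, of the complex that senses double-strand breaks, fell by 1.83 ± 0.13, or by 0.85 ± 0.11 with the correction. Hus1-like, of the checkpoint clamp, rose by 1.11 ± 0.18, or 0.53 ± 0.15, and the recombinase gene spn-A rose by 0.61 ± 0.15, with 0.19 ± 0.15 after correction (edgeR adjusted p = 0.33). The transcripts of mei-41 and tefu are long, at 7899 and 8416 bases.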

How the data were processed

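The authors deposited estimated counts (expected counts that need not be whole) per gene, made with Salmon 1.80 after FastQC 0.10 and Trimmomatic 0.33, per the submitters' processing notes. These notes also name edgeR and the build dm6; no settings are given in them as used here. There were 4 ds38k and 3 WT wing disc libraries. Columns were matched to samples by the labels, with 0 columns left over. Library totals are the depth behind each value; no intervals for counting error were computed. No pair of replicates agreed within sampling noise (chi-square per degree of freedom 37.4 to 240).

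Counts were rounded and filtered with filterByExpr (minimum count 10), which kept 9294 of 17208 genes. They were scaled by TMM factors and tested with edgeR 4.0.16 (R 4.3.3) by the quasi-likelihood test of ds38k over WT, with Benjamini-Hochberg adjustment over all tested genes and a threshold of 0.05. Standard errors are of the log2 fold change, and log2 CPM used a prior count of 2. For the length correction, each gene's log2 CPM minus its mean over libraries was fitted, library by library, on log2 median transcript length (natural spline, 5 df), and the fit served as an offset (9224 genes). Lengths and coordinates came from the Ensembl annotation, which held 17083 of the 17208 identifiers, 16098 under the same symbol. The tests were tried on simulated counts first. With a simulated length trend, the uncorrected fit called 60.2% of unchanged genes, and 96.3% of its calls were false. With the correction these shares were 0.1% and 3.85%. Without a simulated trend, 2.01% of uncorrected and 2.5% of corrected calls were false. The simulated trend was a straight line, the same in each ds38k library, and all genes had the same dispersion. It was built on the same median lengths that the correction fits, so the correction could remove it by construction. These shares therefore do not show how well the correction works on the real libraries. The share of false calls in the real libraries was not tested. Ratios of 8 partner pairs were compared by an exact permutation test over 35 splits (scipy 1.17.1).

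All 39 genes are named. Of each further list of the pathway, up to 3 called genes per direction with the smallest p and a mean of at least 1 CPM are named; 2 entries, Nsl1 and lmg, did not match a symbol. The members and lists were chosen with earlier results of these data known. Alternatives were DESeq2 1.42.0 and its size factors, upper-quartile scaling, no filter, rRNA genes left out, the longest transcript, the replicate number as a block, and each library left out. The planned look at E2F and DRE motifs in promoters was not run, since no sequence was used here.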

Additional observations from a re-analysis of the deposited data

Results flagged for a closer look

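A gap to the nearest ds38k library that was large against the range of all 4 ds38k libraries marked 7 of the 47 measures examined; chance alone marks about 1 in 20 such groups. In 6 of them ds38k replicate 4 was the library standing apart on the high side: CycE at 90.3 CPM, Orc2 at 27.8 CPM, dup at 116 CPM, Mcm5 at 147 CPM, fzy at 129.6 CPM and ncd at 257 CPM. These 6 genes share their library and so do not count as separate events. In the remaining case ds38k replicate 1 was the highest, with Klp61F at 166 CPM. Replicate 4 was also the ds38k library with the lowest summed fat-body and salivary gland markers, at 45.2 and 0.321 CPM. Their part in its higher values was not tested.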

How the results depend on the processing

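The length correction moved the results most. With the median transcript, the lower calls were 6 of the 38 genes (2 G1/S, 2 licensing, 2 mitosis), with 2 licensing genes higher; with the longest transcript the lower calls were 8 (2, 2 and 4), with 2 licensing and 2 mitotic genes higher. Fold changes that changed sign with the median and the longest transcript were CycE (0.09 and 0.03), Rbf (0.28 and 0.11), dpa (0.38 and 0.28), Klp61F (0.38 and 0.21) and His2Av (-0.11 and -0.05), and Mcm2 with the median transcript (0.14). Among genes called in neither fit, fzy also changed sign (-0.09 and -0.16), as did Mcm6 (0.02) and Mcm7 (0.08) with the median transcript. The ratios of pav to tum and fzr to fzy turned to 0.04 and 0.01. In the further lists the counts with the median and the longest transcript were 2 and 1 lower G1/S genes, 8 and 8 higher replication genes, 7 and 5 higher and 25 and 30 lower mitotic genes; 5 replication and 7 checkpoint genes were lower with the median transcript. Over all genes 1760 and 1848 were lower.

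Other settings moved fewer counts. DESeq2 size factors and the DESeq2 Wald test each called 7 licensing genes lower. Upper-quartile scaling called 5 mitotic genes lower, and 11 further G1/S and 5 checkpoint genes higher. No filter and leaving out rRNA genes left every count within 1.5 times its value.

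Same-numbered libraries correlated at r = 0.137, 0.00313 and 0.0982 in their deviations from the group means, so the numbers were not taken as pairs. Number 4 occurs only in ds38k, so a block for it absorbs ds38k replicate 4, and that library adds nothing to the estimated genotype difference. The replicate block gave 10 higher and 23 lower genes, with 7 licensing genes lower, the same counts as without ds38k replicate 4. The replicate block with the length correction gave 12 higher and 14 lower, with 3 G1/S genes lower and 2 licensing genes higher, and in the further lists 11 G1/S genes higher and 4 lower, 8 replication genes higher, and 7 mitotic genes higher and 31 lower. Under this block with the length correction, Rbf was at 0.30, Mcm2 at 0.11, dpa at 0.39, Klp61F at 0.43 and His2Av at -0.17. The cause was not tested.

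Leaving out each library in turn gave 12 to 23 lower genes, 3 to 7 of them in licensing and 5 to 11 in mitosis. With the length correction it gave 4 to 12 higher genes (2 to 5 in G1/S and 0 to 5 in mitosis) and 1 to 11 lower genes (1 to 2, 0 to 2 and 0 to 7 in G1/S, licensing and mitosis). Lower calls over all genes ran from 2492 to 3190 without the correction and from 1267 to 2317 with it. Every gene had a group mean of at least 22.1 CPM; what limits the calls was not tested.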
